A study of Drosophila melanogaster and Drosophila simulans and Drosophila erecta with 10 samples.

Results

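Canonical nuclear oxidative phosphorylation (OXPHOS) genes are described here in testes of Drosophila melanogaster carrying a miR-983 knockout (labelled miR-983KO) and in control testes. The members are the genes whose FlyBase symbol starts with ND-, UQCR-, COX or ATPsyn, together with SdhA, SdhB, SdhC, SdhD and Cyt-c1. Symbols ending in L, L1 or L2, which mark testis paralogs, and mtDNA-encoded genes were left out. The rule uses names only and found 62 of the 7326 genes in the table, with 33 in complex I, 4 in complex II, 6 in complex III, 8 in complex IV and 11 in complex V. Complexes were assigned by symbol alone, so ND-MLRQ, counterpart of human NDUFA4, was counted in complex I. Of the 63 symbols that meet the rule, 1 (UQCR-11) is not in the table.

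The series sequenced RNA from testes of adult flies aged 3 to 5 days and reared at 25 °C. For D. melanogaster there are 2 libraries from flies labelled miR-983 mutant and 2 from flies labelled control, which the series' design text calls biological replicates. The labels name no strain, no rescue and no method of deletion, and do not say how many flies were pooled. Libraries of other species (D. simulans, D. erecta and D. sechellia) were not used, since the members were found by D. melanogaster symbols. The values are log2 expression values that the authors deposited, 1 per gene and library. The quantity under the logarithm is not given in the sources used here, so levels of different genes are not ranked, and sequencing depth is unknown.

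OXPHOS is the process by which the inner mitochondrial membrane turns the electrons of NADH and succinate into ATP. Complexes I to IV pass electrons on to oxygen, and all of them except complex II pump protons, whose return through complex V, the ATP synthase, drives ATP formation. Complex II is built from nuclear genes alone, whereas the other complexes combine nuclear subunits with a few subunits encoded in mtDNA. In the fly testis, mitochondria of round spermatids fuse into the nebenkern, which later unfolds and elongates along the growing sperm tail, and several OXPHOS subunits have a second, testis-enriched gene copy.

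The libraries carried the transcripts of a testis. All 7 fixed spermatid markers and 6 of 8 germline markers were listed, against 6 of 11 muscle sheath markers, 4 of 7 fat body markers, 1 of 8 accessory gland markers, 1 of 6 cyst and hub cell markers, and none of the 4 nerve markers (0 genes). The table holds 0 entries under a miR-983 symbol, so the deleted gene could not be followed. Of the marker lists, only fat body had genes past the test, with 2 of 4 higher in miR-983KO testes. The log2 fold changes of these 4 genes ran from -0.00 to 0.80. Their unlogged levels, a sum in which the genes with the highest values weigh most, came to 906.8 and 1061.2 in miR-983KO testes, against 917.8 and 967.5 in control testes. The accessory gland gene Acp95EF stood at 4.42 and 6.34 in miR-983KO replicates 1 and 2, against 4.16 and 4.12 in the controls.

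No member passed the test between genotypes. Of 62 genes, 0 were called (limma across all 7326 genes, two-sided, Benjamini-Hochberg adjusted p under 0.05), where 2.28% of all genes were called, 1.05% higher and 1.23% lower in miR-983KO testes. At an unadjusted limma p under 0.05 there was 1 member (1.61%), ND-B8, against 12.7% of all genes. The authors' deposited table marks 0 of the 62 as past p 0.05 by DESeq2, against 1.65% of all genes. The log2 fold changes, miR-983KO over control, were positive for 31 members and negative for 31, with a median of -0.00, where the median over all genes was -0.01. This balance depended on the libraries: 43 of 62 were positive without miR-983KO replicate 1 (median 0.04) and 24 of 62 without miR-983KO replicate 2 (median -0.03). The median absolute log2 fold change was 0.06 over the members and 0.07 over all genes. Among called genes the smallest absolute log2 fold change was 0.30, which only ND-B8 exceeded among the members. In whole testes, fewer cells of a type and less RNA per cell cannot be told apart.

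The intervals were narrow for most members. The 95% limma interval of the log2 fold change lay within 0.3 of 0 on either side (1.23-fold) for 48 of 62 members (77.4%), against 57.2% of all genes. It lay within 0.6 (1.52-fold) for 61 members, with ND-B8 as the exception, and within 2-fold for all 62 of them. These bounds were chosen after the values were seen. Standard errors of the members' log2 fold changes ran from 0.06 to 0.14, with a median of 0.08.

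**Figure D1:**
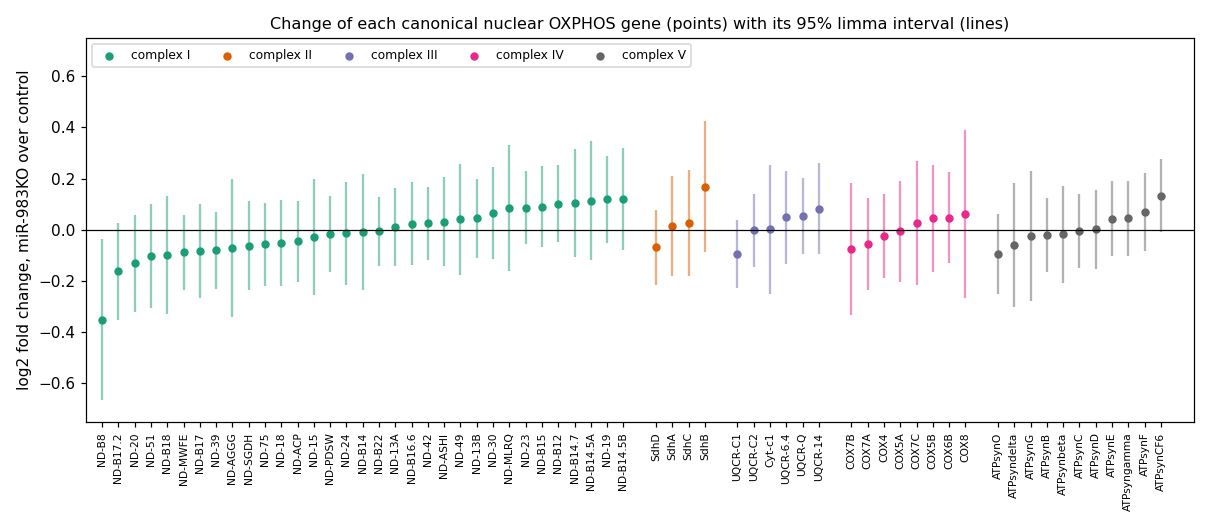
Log2 fold change (vertical axis, miR-983KO over control) of each of the 62 canonical nuclear OXPHOS genes, coloured by complex and ordered by size within it, with lines for the 95% limma interval. The points lie between -0.35 (ND-B8) and 0.17 (SdhB), and the interval of every gene other than ND-B8 includes 0.

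For most members the genotypes overlapped. Both miR-983KO libraries lay above both controls for 9 members and below both for 8, so that 17 of 62 (27.4%) did not overlap. Over all genes 42.3% did not overlap, 17.9% higher and 24.3% lower in miR-983KO testes. The 17 members comprised 10 of complex I, 2 of complex II, 2 of complex III, 0 of complex IV and 3 of complex V.

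**Figure D2:**
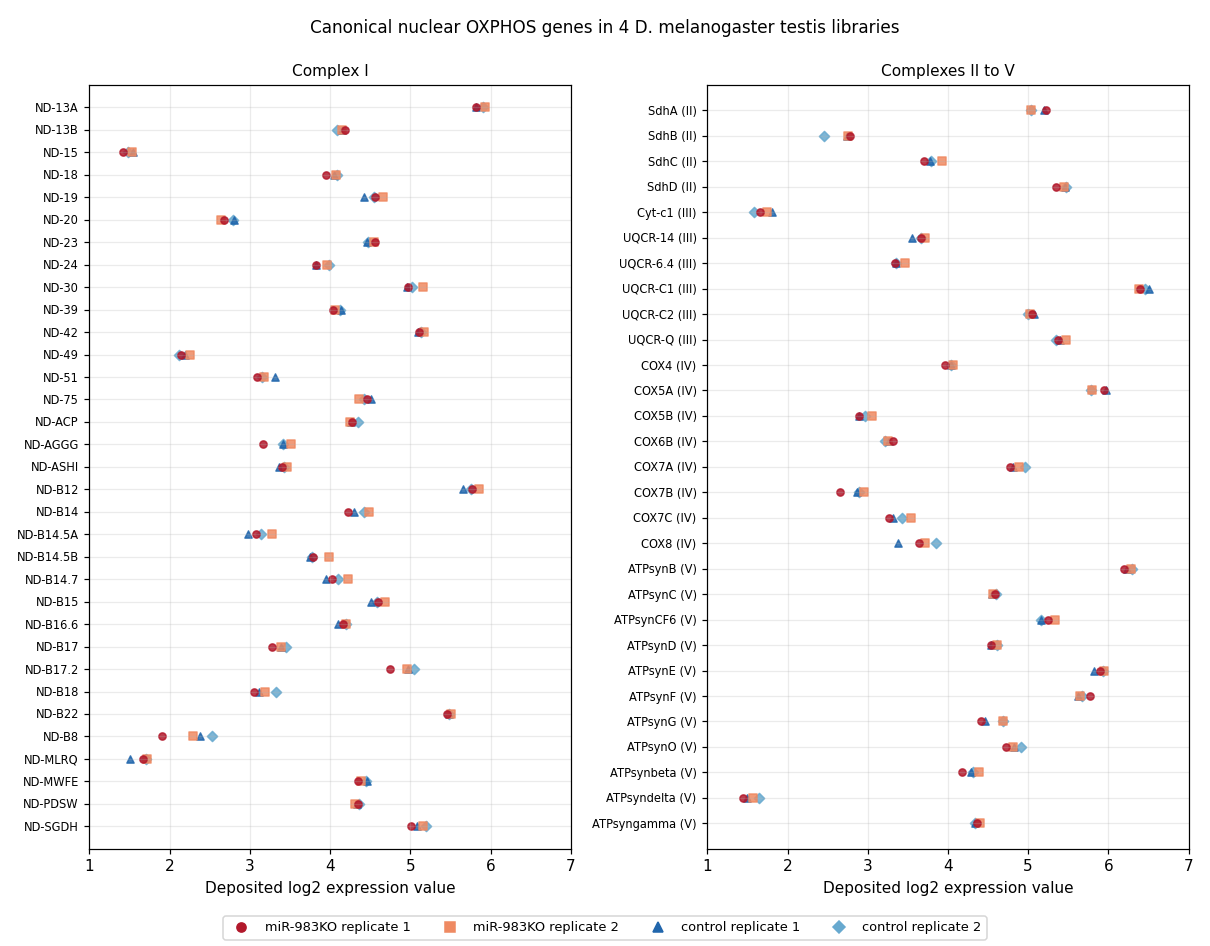
Deposited log2 value (horizontal axis) of the 62 canonical nuclear OXPHOS genes (rows) in each of the 4 libraries, miR-983KO in red and orange and control in blue. For most genes the 4 symbols lie on top of each other, and ND-B8 and COX8 are among those with visible spread.

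Complex I, NADH dehydrogenase, takes electrons from NADH and holds 33 of the members. Its median log2 fold change was -0.01, with 15 genes above and 18 below 0. The 7 core subunits of the matrix arm, which include the carriers of the flavin and of the iron-sulfur clusters, had a median of -0.01 and a range set by ND-20 (-0.13) and ND-23 (0.09). The 9 counterparts of the human NDUFB class, which sit in the membrane arm, had a median of -0.02, and the 17 other accessory subunits a median of 0.01.

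ND-B8, counterpart of human NDUFA2 and an accessory subunit of the matrix arm, had the smallest p of all members. Its log2 values were 1.91 and 2.29 in miR-983KO testes, against 2.38 and 2.52 in control testes. Both miR-983KO libraries were below both controls, but they differed from each other by 0.38, more than the 2 genotype means did. The log2 fold change was -0.35 ± 0.14 (SE), with a 95% interval of -0.67 to -0.04 (limma adjusted p = 0.33). It was -0.16 without miR-983KO replicate 1 and -0.54 without miR-983KO replicate 2. The gene overlaps Gs1l, whose log2 fold change was 0.04 ± 0.10 (SE), and strand handling is unknown.

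ND-B17.2, counterpart of NDUFA12 and also of the matrix arm, stood at 4.74 and 4.95 in miR-983KO testes, against 4.98 and 5.04 in control testes. The genotypes did not overlap, though miR-983KO replicate 2 came within 0.02 of control replicate 1 (log2 fold change -0.16 ± 0.08, SE; limma adjusted p = 0.491). Its difference was -0.06 without miR-983KO replicate 1 and -0.27 without miR-983KO replicate 2. ND-20, counterpart of NDUFS7, carries the last iron-sulfur cluster before ubiquinone. Its values were 2.68 and 2.64 in miR-983KO testes, against 2.80 and 2.79 in control testes, a difference of -0.13 ± 0.08 (SE; limma adjusted p = 0.609). The libraries of each genotype lay close together, and the genotypes did not overlap.

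Other accessory subunits lay on the opposite side of 0. ND-19, counterpart of NDUFA8, stood at 4.55 and 4.66 in miR-983KO testes, against 4.43 and 4.55 in control testes. miR-983KO replicate 1 was barely above control replicate 2, and the log2 fold change was 0.12 ± 0.07 (SE; limma adjusted p = 0.608). ND-B12, counterpart of NDUFB3 in the membrane arm, had 5.77 and 5.85 in miR-983KO testes, against 5.66 and 5.75 in control testes. ND-B14.5B, counterpart of NDUFC2, had 3.78 and 3.99 in miR-983KO testes, against 3.75 and 3.78 in control testes. Neither pair of genotypes overlapped, with log2 fold changes of 0.10 and 0.12 (limma adjusted p = 0.616 and 0.659). With 1 library left out the log2 fold changes ran from 0.06 to 0.18 for ND-19, from 0.06 to 0.15 for ND-B12 and from 0.02 to 0.23 for ND-B14.5B. ND-13A (counterpart of NDUFS6) and ND-15 (counterpart of NDUFS5), which had the highest and lowest deposited means of the complex (not known to be per length), differed by 0.01 and -0.03 on the log2 scale, and their genotypes overlapped.

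Complex II, succinate dehydrogenase, also acts in the tricarboxylic acid cycle. SdhA, the flavoprotein that binds FAD, had 5.22 and 5.04 in miR-983KO testes, against 5.19 and 5.03 in control testes. SdhB, the iron-sulfur subunit, had 2.78 and 2.76 in miR-983KO testes, against 2.75 and 2.46 in control testes. The SdhB genotypes did not overlap, and control replicate 2 stood apart from the other 3 libraries (log2 fold change 0.17 ± 0.11, SE; limma adjusted p = 0.634). Without control replicate 2 the SdhB difference was 0.02, and without control replicate 1 it was 0.31. The membrane anchor SdhC had 3.70 and 3.93 in miR-983KO testes, against 3.78 and 3.79 in control testes. The other anchor, SdhD, had 5.34 and 5.45 in miR-983KO testes, against 5.45 and 5.47 in control testes. SdhC overlapped between genotypes and SdhD did not, and neither passed the test (log2 fold changes of 0.03 and -0.07).

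Complex III hands electrons from ubiquinol to cytochrome c. UQCR-C1, a core protein of its matrix side, had 6.39 and 6.38 in miR-983KO testes, against 6.50 and 6.46 in control testes. The genotypes did not overlap, and the log2 fold change was -0.10 ± 0.06 (SE; limma adjusted p = 0.593). UQCR-14 had 3.67 and 3.71 in miR-983KO testes, against 3.55 and 3.67 in control testes, with miR-983KO replicate 1 level with control replicate 2 at this rounding. Cyt-c1, the haem subunit, had 1.65 and 1.74 in miR-983KO testes, against 1.80 and 1.59 in control testes, so that the miR-983KO libraries lay between the controls. UQCR-Q, UQCR-6.4 and the core protein UQCR-C2 differed by 0.05, 0.05 and -0.00 on the log2 scale, each with overlapping genotypes.

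Complex IV, cytochrome c oxidase, reduces oxygen to water. None of its 8 members separated the genotypes (0 genes), and their log2 fold changes lay between -0.07 for COX7B and 0.06 for COX8. The largest spread among all members' controls was that of COX8, at 3.63 and 3.72 in miR-983KO testes, against 3.37 and 3.85 in control testes. COX5A showed the same order in both genotypes, with 5.95 and 5.79 in miR-983KO testes, against 5.97 and 5.78 in control testes. COX7A, COX6B and COX5B differed by -0.06, 0.05 and 0.04, all with limma adjusted p of 0.858 or more.

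Complex V, the ATP synthase, had log2 fold changes from -0.10 to 0.13. ATPsynCF6, coupling factor 6 of the peripheral stalk, had 5.25 and 5.34 in miR-983KO testes, against 5.16 and 5.16 in control testes. The genotypes did not overlap, and the difference of 0.13 ± 0.06 (SE) carried the second smallest p of all members (limma adjusted p = 0.437). ATPsynO, the stalk subunit that confers oligomycin sensitivity, had 4.73 and 4.81 in miR-983KO testes, against 4.82 and 4.91 in control testes. Its genotypes were next to each other without overlap (-0.10 ± 0.07, SE; limma adjusted p = 0.659), so that subunits of the same stalk lay on either side of 0. ATPsyngamma, the central rotor shaft, had 4.36 and 4.40 in miR-983KO testes, against 4.34 and 4.34 in control testes, which is a separation of 0.02. The catalytic subunit ATPsynbeta, the stalk subunit ATPsynB and ATPsynF differed by -0.02, -0.02 and 0.07 with overlapping genotypes.

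A microRNA lowers its targets, so loss of miR-983 could directly raise members that it targets. Predicted sites mark candidates only. The authors' deposited table marks 2 members as TargetScan targets of miR-983-5p (COX4 and ATPsyndelta, 3.23%, against 5.36% of all genes), 2 as PITA targets of miR-983-5p (SdhA and COX7B, 3.23% against 4.01%), and 0 as TargetScan targets of miR-983-3p, against 4.78% of all genes. COX4, an early-assembling subunit of complex IV, had 3.96 and 4.07 in miR-983KO testes, against 4.04 and 4.03 in control testes. ATPsyndelta, of the central stalk, had 1.45 and 1.57 in miR-983KO testes, against 1.49 and 1.64 in control testes. COX7B had 2.65 and 2.96 in miR-983KO testes, against 2.86 and 2.89 in control testes. In all 4 marked genes the genotypes overlapped, and the log2 fold changes were -0.02 for COX4, -0.06 for ATPsyndelta, -0.07 for COX7B and 0.01 for SdhA (limma adjusted p between 0.871 and 0.971).

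Differences between libraries of the same genotype were as large as those between genotypes. miR-983KO replicate 2 was above miR-983KO replicate 1 for 48 of 62 members (77.4%, against 54.0% of all genes), with a median difference of 0.09. Control replicate 2 was above control replicate 1 for 42 members (67.7%, against 47.1% of all genes), with a median difference of 0.05. Over all genes these medians were 0.01 and -0.01. For 29 members the genotype difference was smaller than the gap between libraries in either genotype (46.8%, against 38.7% of all genes), and for 9 it was larger than both (30.6% of all genes were). A difference between single libraries varies more than a difference between means of 2, so these counts do not show by themselves that a genotype difference is noise.

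**Figure D3:**
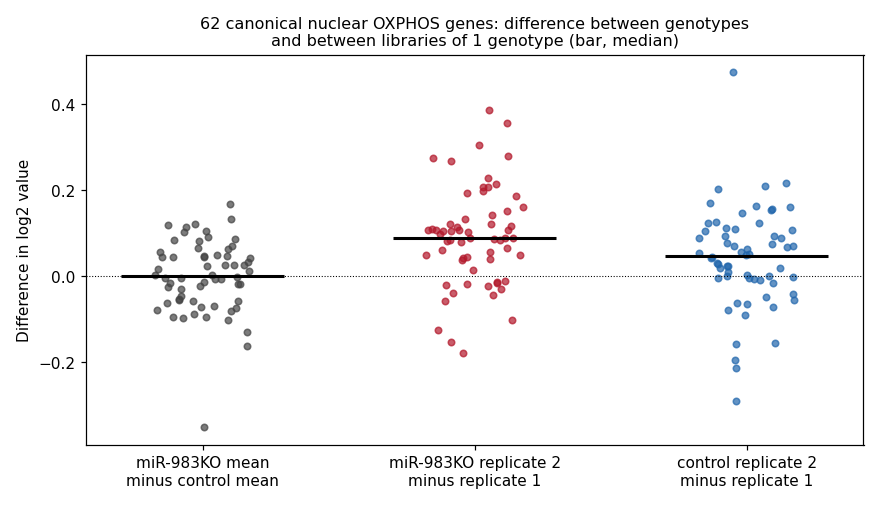
Difference in log2 value (vertical axis) for each of 62 canonical nuclear OXPHOS genes between genotype means, between the miR-983KO libraries and between the control libraries, with a bar at each median. The genotype differences centre on 0, while the medians between libraries of 1 genotype are 0.09 in miR-983KO and 0.05 in control testes.

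miR-983KO replicate 2 was above replicate 1 for 27 of 33 members of complex I and 9 of 11 of complex V, and control replicate 2 was above replicate 1 for 24 and 10 of them. In complex III it was 4 of 6 in miR-983KO and 1 of 6 in control testes, in complex IV 6 of 8 and 5 of 8, and in complex II 2 of 4 in either genotype. The complexes were not tested against each other. Cytoplasmic ribosomal protein genes shifted in the same direction, with 82 of 87 higher in miR-983KO replicate 2 than in replicate 1 and 66 of 87 in the controls. So did the 7 spermatid markers, all higher in replicate 2 of either genotype, with summed unlogged levels of 3595.1 and 4103.3 in miR-983KO testes, against 3699.9 and 4236.2 in control testes. Muscle sheath markers summed to 40.1 and 42.9 in miR-983KO testes, against 46.6 and 36.2 in control testes, and 5 of 6 were higher in miR-983KO replicate 2 but 0 of 6 in control replicate 2. Germline markers summed to 52.9 and 49.5 in miR-983KO testes, against 51.5 and 50.8 in control testes, with 0 of 6 higher in miR-983KO replicate 2 and 1 of 6 in control replicate 2. The part of cell content in the members' shift was not tested. The unlogged levels of the 62 members summed to 1432.9 and 1497.1 in miR-983KO testes, against 1446.0 and 1479.9 in control testes, so the genotypes interleaved.

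Most mtDNA-encoded subunits of the same complexes had lower values in miR-983KO testes. This list was added after the data were seen. Of 13 such genes in the table, 2 fell: mt:ND4, a proton-pumping subunit of complex I, and mt:ATPase6, the proton channel subunit of complex V. Over all genes 1.23% were called lower. mt:ND4 had 6.44 and 6.49 in miR-983KO testes, against 6.81 and 6.83 in control testes (log2 fold change -0.35 ± 0.06, SE; limma adjusted p = 0.0251). mt:ATPase6 had 7.56 and 7.62 in miR-983KO testes, against 7.95 and 7.97 in control testes (-0.37 ± 0.06, SE; limma adjusted p = 0.0275). The other 11 did not pass, and 9 of 13 were lower in both miR-983KO libraries than in both controls (24.3% of all genes were).

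The mt:ND4 and mt:ATPase6 fold changes varied little between the 10 alternatives, whereas their calls did not hold under all of them. The log2 fold change ran from -0.38 to -0.32 for mt:ND4 and from -0.40 to -0.34 for mt:ATPase6. mt:ND4 kept its call without control replicate 1 (limma adjusted p = 0.035) and without miR-983KO replicate 2 (0.0436), and lost it without control replicate 2 (0.0665) and without miR-983KO replicate 1 (0.0642). mt:ATPase6 kept its call without miR-983KO replicate 2 (0.0422), and lost it without control replicate 1 (0.0764), without control replicate 2 (0.108) and without miR-983KO replicate 1 (0.0652). With a control library left out the standard errors were larger, at 0.11 for mt:ND4 and 0.13 for mt:ATPase6. Calls kept or lost there depended on how each fit estimated the variance as well as on the fold change. Without control replicate 1 mt:ND4 kept its call at -0.36 ± 0.11 (SE). Without miR-983KO replicate 1 it lost its call at -0.33 ± 0.07 (SE), with the smaller standard error. Calls are therefore not comparable between these fits. Without the variance trend neither passed (0.0769 for mt:ND4 and 0.0662 for mt:ATPase6). Over all 10 alternatives the adjusted p ran from 0.000809 to 0.0769 for mt:ND4 and from 0.000585 to 0.108 for mt:ATPase6.

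Of the 13 genes, mt:ND6 and mt:ND4L, both subunits of complex I, had positive log2 fold changes. mt:ND6 had 1.79 and 1.71 in miR-983KO testes, against 1.07 and 2.08 in control testes (0.18 ± 0.27, SE; limma adjusted p = 0.873). The miR-983KO libraries lay between the controls, and the controls decided its direction. Without control replicate 2 the mt:ND6 log2 fold change was 0.68, and without control replicate 1 it was -0.32. The 0.68 rests on control replicate 1 alone, at 1.07, where the lowest deposited value of any gene is 1.00. mt:ND4L had 2.13 and 1.89 in miR-983KO testes, against 1.75 and 2.13 in control testes, with overlapping genotypes (0.07 ± 0.15, SE).

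The nuclear members of each complex are set beside its mtDNA-encoded genes. In complex I the median log2 fold change was -0.01 over 33 nuclear genes and -0.22 over 7 mtDNA-encoded genes. In complex IV it was 0.01 over 8 nuclear and -0.15 over 3 mtDNA-encoded genes, and in complex V it was -0.01 over 11 nuclear and -0.35 over 2 mtDNA-encoded genes. Complex III has mt:Cyt-b alone, at -0.16, beside 0.03 over 6 nuclear genes. Unlogged levels of the 13 mtDNA-encoded genes summed to 3089.1 and 3387.1 in miR-983KO testes, against 3659.6 and 3802.4 in control testes, so these sums did not overlap. The genes with the highest values weigh most in these sums, so they do not stand for all 13 genes. The difference between nuclear and mtDNA-encoded subunits was not itself tested.

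**Figure D4:**
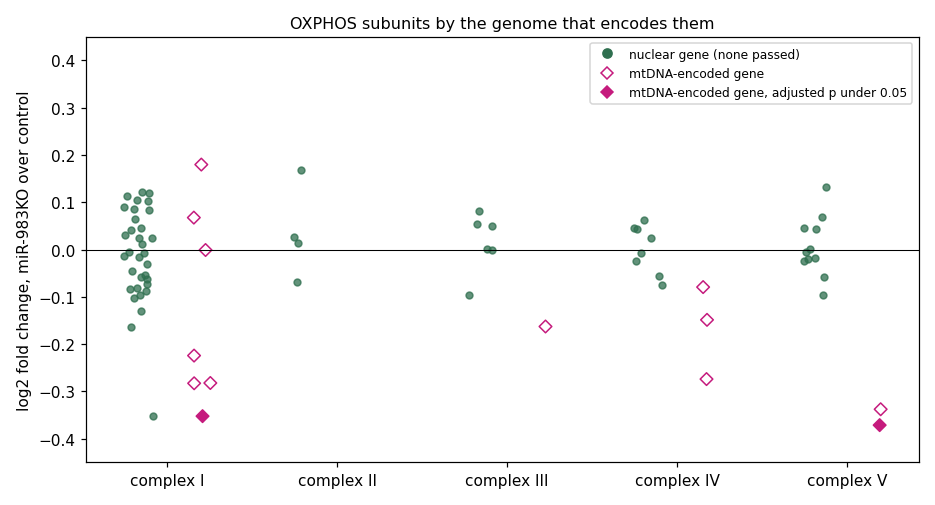
Log2 fold change (vertical axis, miR-983KO over control) of OXPHOS genes by complex, with nuclear genes as green circles and mtDNA-encoded genes as pink diamonds, filled where limma's adjusted p is under 0.05. The nuclear genes centre on 0 in each complex, and the 2 filled diamonds are mt:ND4 in complex I at -0.35 and mt:ATPase6 in complex V at -0.37.

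Testis paralogs could be set beside 18 members, in 19 pairs, since ND-51 has both ND-51L1 and ND-51L2. None of the paralogs passed (0 genes; lowest limma adjusted p = 0.378, for ND-24L at 0.14 ± 0.06, SE, where ND-24 was at -0.01). ATPsynCF6 and ATPsynCF6L lay on opposite sides of 0, at 0.13 and -0.13, with neither past the test.

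Other nuclear genes of the pathway also gave no call in these lists. Of 7 OXPHOS subunits that the symbol rule misses, 0 passed and the median log2 fold change was -0.05. The smallest p among them belonged to RFeSP, the Rieske iron-sulfur protein of complex III, at 4.72 and 4.82 in miR-983KO testes, against 4.95 and 5.01 in control testes (limma adjusted p = 0.192), and to levy, a subunit of complex IV, at 0.14. The list includes ND-MNLL, a canonical complex I subunit whose symbol happens to end in L, at -0.08 ± 0.09 (SE). Of 15 assembly factors 0 passed (median 0.05), with the smallest p for Cox10 (-0.22) and Nubpl (0.23). Of 69 mitochondrial ribosomal protein genes 0 passed (median -0.03).

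Of 17 tricarboxylic acid cycle and pyruvate dehydrogenase genes 0 passed (median -0.04), and 9 of them were lower in both miR-983KO libraries than in both controls (24.3% of all genes were). Fum3, a fumarase gene, had 6.06 and 6.12 in miR-983KO testes, against 6.39 and 6.32 in control testes (-0.26 ± 0.06, SE; limma adjusted p = 0.0847), and Pdhb was at -0.17. Of 16 protein import genes 0 passed (median 0.03; Tim17b2 0.20, Tim17b1 0.13). Of 5 carrier and porin genes 0 passed (median -0.02; Porin2 -0.08, Ant2 -0.08). Of 6 genes of mtDNA replication and transcription 0 passed (median 0.05; PolG1 -0.20, mtSSB 0.10).

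On assembly Release 6 plus ISO1 MT no members were direct neighbours among the tested genes (0 pairs). By that annotation 34 of 62 members overlap another gene, and the share over all genes was not computed. Without knowledge of strand the values of these members can include reads of the partner. None of the overlapping genes that were tested passed either (lowest limma adjusted p = 0.102, for Atg12 beside ND-SGDH).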

How the data were processed

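The members and lists were chosen with earlier results of these data known. The authors deposited log2 expression values per gene and library, a log2 fold change, and yes or no marks (other, non-numeric columns) for predicted targets and DESeq2 calls, per the file headers. The deposited fold change equals the miR-983KO mean minus the control mean within 1.5e-06. TopHat is named in the submitters' processing notes. Genome build, counter, scaling, strand handling and any pseudocount were not given in the sources used here. Of 7326 identifiers 7195 matched a symbol. No table column was left unmapped (0 columns).

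All genes were fitted together with limma 3.58.1 in R 4.3.3 (empirical Bayes with trend, no block, no filter), two-sided, adjusted by Benjamini-Hochberg at 0.05. The procedure was run on simulated data whose planted changes were larger than that of any member, so changes of the members' size were not tried. Summaries used Python 3.11.15. The p-values set the genotype difference against an estimated variance. This variance combines the spread between 2 libraries per genotype with a trend fitted over all genes. Alternatives were 3 scalings, a filter at a mean log2 value of 2, no trend, a replicate block and leaving out each library. Values are logged as deposited, so the pseudocount alternative was void. Named members are, per complex, those with the smallest p (6 in complex I, 4 elsewhere), the highest and lowest mean, and marked targets (29 in all). For most of the other mitochondrial lists, called genes or the 2 with the smallest p are named. ATPsynbeta, COX8, ND-23, UQCR-C2, ND-24, Acp95EF, mt:ND6, mt:ND4L and genes overlapping or paralogous to members were named after their values were seen. No sequences were used here.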

Additional observations from a re-analysis of the deposited data

How the results depend on the processing

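No OXPHOS member passed under any of the 10 alternatives (0 members), of which the filter left 58 of the 62 to be fitted, and the lowest adjusted p was 0.0557, for ND-B8 with a replicate block (0.0557 to 0.648 over its alternatives). The log2 fold change kept its sign for 16 of 29 named members under every alternative that fitted them. The count over all genes was 503 with the replicate block, and 118 to 304 with 1 library left out. The labels give no link between same-numbered libraries beyond the number, and whether they share a batch is unknown. Deviations from the genotype mean had a correlation of 0.147 between control replicate 1 and miR-983KO replicate 1. Replicate 2 was above replicate 1 in both genotypes for 59.7% of members, against 31.7% of all genes. With 1 library left out, 37 to 42 of 62 members did not overlap, against 67.3% to 75.5% of all genes. A lone library overlaps 2 others less often than 2 libraries do, so these counts cannot be set beside those with all libraries. The members above 0 numbered 24 to 43 with 1 library left out and 33 to 36 under the 3 scalings. Medians with 1 library left out ran from -0.033 to 0.044 over the members, -0.031 to 0.042 in complex I, -0.019 to 0.062 in complex II, -0.038 to 0.042 in complex V, -0.0053 to 0.074 in complex III, -0.057 to 0.053 in complex IV, -0.106 to 0.036 in the subunits outside the rule, -0.010 to 0.029 in the paralogs, 0.0032 to 0.036 in the assembly factors, -0.048 to 0.021 in mitochondrial ribosomal proteins, -0.072 to -0.015 in tricarboxylic acid genes, -0.010 to 0.030 in import and 0.0088 to 0.071 in mtDNA maintenance. In mtDNA-encoded genes they ran from -0.287 to -0.179. Calls among these genes and among mitochondrial ribosomal proteins differed between these fits. Without control replicate 2 mt:ND6 was higher in miR-983KO testes, against 1 control library near the lowest deposited value. With the block, 6.87% of all genes were called. Calls then numbered 6 of 13 mtDNA-encoded genes and 2 of 25 paralogs. There was 1 call each among 7 subunits outside the rule, 69 mitochondrial ribosomal proteins, 17 tricarboxylic acid genes and 16 import genes. The mtDNA-encoded genes had 0 calls without the trend, and a median of -0.27 with the filter. Import had medians of 0.052 after quantile normalization and 0.043 after cyclic loess, and the paralogs 0.026 after cyclic loess. The cause of these shifts was not tested. With 1 library left out, the lone library is assumed to vary like the others.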
